A study of Mus musculus with 8 samples.

Results

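The 77 genes described here encode nuclear-encoded subunits of the 5 oxidative phosphorylation complexes, measured by RNA sequencing in mouse haematopoietic stem and progenitor cells (HSPCs). They were taken by name from a table of 24421 genes: symbols beginning with Nduf (assembly factors named Ndufaf left out), Uqcr, Atp5 or Cox4 to Cox8, and Sdha, Sdhb, Sdhc, Sdhd and Cyc1. Of 86 genes with such names, 77 had a mean of 5 or more CPM (counts scaled to library size) over the 8 libraries. By name they fall into 36 genes of complex I, 4 of complex II, 9 of complex III, 11 of complex IV and 17 of complex V. All 77 were among the 12744 genes tested.

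There were 4 groups of 2 libraries, from cells recovered after a primary transplant into mice. In dKOPRMT, cells lacking both beta-catenin (Ctnnb1) and Hoxa9, the double knockout (dKO), were transduced with wild-type PRMT1, which adds asymmetric methyl groups to arginines. In dKOMut the same cells carried an enzymatically dead PRMT1 mutant, and in dKOEV an empty vector. In WTEV, wild-type cells carried the empty vector, so a transduced construct is common to all 4 groups. The source label calls every library dKO, the WTEV libraries included, and the genotype label of dKOMut replicate 2 names PRMT2, so groups were taken from the titles. The labels do not say how the genes were deleted, which cells were sorted or whether the replicates are separate animals or cultures. The p-values therefore reflect only library-to-library spread, part of which may be technical.

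Oxidative phosphorylation couples electron transport in the inner mitochondrial membrane to ATP synthesis. Complex I takes electrons from NADH and complex II from succinate; complex III passes them to cytochrome c, complex IV passes them to oxygen, and complex V, the ATP synthase, uses the resulting proton gradient. Apart from complex II, each complex also holds subunits encoded by mitochondrial DNA, and those subunits are not analysed here. Blood stem cells at rest are known to rely more on glycolysis than their cycling progeny do, and oxidative phosphorylation is engaged as they differentiate.

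Promoters of subunit genes are known to bind the factors NRF1, GABPA (an ETS factor) and YY1. In RefSeq promoter sequences (GRCm38.p6, 250 bases before to 50 after the start), 65 of the 77 genes had an entry, with 71 promoters. The window overlapped the gene's span in the count table for 62 of them. Both strands were searched for the letters GCGCATGC (NRF1), CCGGAAG (ETS) and AAGATGGC (YY1). The NRF1 letters were in 14.1% of the subunit promoters, against 2.71% of all 32851 promoters of that length. The ETS letters were in 22.5%, against 8.86%, and the YY1 letters in 16.9%, against 2.75%. YY1 letters were found in promoters of 7 of the 32 matched complex I genes and 4 of the 16 matched complex V genes, Atp5sl among them. They were in 0 of the 3, 5 and 9 matched genes of complexes II, III and IV, numbers too small to set the complexes apart. A match is a description of these windows, not of binding. The 4 promoters below belong to genes that the comparisons turn on: Atp5k and Cox7a2, called in 3 comparisons each, Sdhb, the complex II gene that fell with PRMT1, and Atp5j2, whose YY1 letters lie beside the start. Capitals mark the motif letters on either strand. Atp5k lies at chr5:108434350-108434649 on the minus strand, and its 10 capitals in a row hold the NRF1 letters once on each strand, overlapping. Its second capital stretch is the ETS motif read on the other strand. Cox7a2, at chr9:79759804-79760103 on the minus strand, holds none of the motifs. Sdhb, at chr4:140961021-140961320 on the plus strand, holds NRF1 letters followed by ETS letters. Atp5j2, at chr5:145191492-145191791 on the minus strand, holds YY1 letters.
Atp5k: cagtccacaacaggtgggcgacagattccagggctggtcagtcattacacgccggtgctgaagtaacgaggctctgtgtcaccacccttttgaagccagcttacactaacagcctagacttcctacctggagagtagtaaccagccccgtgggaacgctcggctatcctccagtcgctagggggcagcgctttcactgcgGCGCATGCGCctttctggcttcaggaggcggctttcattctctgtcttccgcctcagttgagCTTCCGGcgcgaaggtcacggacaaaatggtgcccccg
Cox7a2: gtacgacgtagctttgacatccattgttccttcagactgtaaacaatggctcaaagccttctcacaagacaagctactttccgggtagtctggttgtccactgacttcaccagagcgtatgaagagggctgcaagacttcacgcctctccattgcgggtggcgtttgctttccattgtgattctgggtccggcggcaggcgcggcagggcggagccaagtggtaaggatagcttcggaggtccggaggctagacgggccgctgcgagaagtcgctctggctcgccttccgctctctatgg
Sdhb: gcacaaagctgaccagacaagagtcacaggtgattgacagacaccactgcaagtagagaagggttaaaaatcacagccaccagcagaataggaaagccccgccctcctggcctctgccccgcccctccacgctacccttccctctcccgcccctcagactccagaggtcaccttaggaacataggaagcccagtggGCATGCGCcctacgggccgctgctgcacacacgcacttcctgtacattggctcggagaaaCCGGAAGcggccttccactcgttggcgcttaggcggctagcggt
Atp5j2: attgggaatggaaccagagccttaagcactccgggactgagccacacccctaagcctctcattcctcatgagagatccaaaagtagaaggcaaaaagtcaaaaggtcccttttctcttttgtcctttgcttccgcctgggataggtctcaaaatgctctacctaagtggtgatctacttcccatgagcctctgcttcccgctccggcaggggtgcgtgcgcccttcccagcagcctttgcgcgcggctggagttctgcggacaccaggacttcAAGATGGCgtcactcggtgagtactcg

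Facts of the libraries bear on every comparison. Totals ran from 15531344 to 22329749 counts, both in dKOEV. Prmt1 had 980 and 975 CPM in dKOPRMT, 1744 and 1758 CPM in dKOMut, 190 and 194 CPM in dKOEV, and 188 and 192 CPM in WTEV, so the active and dead inserts were compared at unequal Prmt1 levels and dKOMut replicate 2 carried as much Prmt1 transcript as replicate 1. Hoxa9 stood at 1.87 to 5.79 CPM in the 6 dKO libraries, against 18.2 and 17.2 CPM in WTEV. Ctnnb1 stood at 360 to 390 CPM in the dKO libraries, against 444 and 455 CPM in WTEV, and since the labels do not name the deleted exons, this count is no test of the deletion. The 4 Y-linked genes examined were counted in the dKO libraries alone and Xist in the WTEV libraries alone, so in any comparison with WTEV genotype and donor sex cannot be told apart. The 10 HSPC markers were all present, at a summed 1364 to 1492 CPM in the dKO libraries, against 1617 and 1580 CPM in WTEV. They did not move together. Flt3 was lower in the dKO libraries (15.4 to 19.5 CPM, against 35.1 and 31.6 CPM in WTEV). Spi1 (351 to 404 CPM, against 326 and 313 CPM) and Mecom (2.46 to 9.40 CPM, against 1.18 and 1.94 CPM) were higher. The haemoglobin genes Hba-a1, Hbb-bs and Hbb-bt and the T cell gene Cd3e had 0 counts in every library.

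On the TPM scale (counts divided by gene length and scaled to the library), the median level differed between complexes, most between complexes I and IV. Complex I genes had a median of 166 TPM, complex II 224, complex III 361, complex IV 562 and complex V 446 TPM. The highest complex I gene was Ndufa4, at 560 TPM, which is now assigned to complex IV. The lowest was Ndufa11, a membrane arm subunit, at 40.4 TPM. Complex II genes lay within 205 TPM (Sdhb) and 254 TPM (Sdhd), a 1.24-fold span. Complex III ran from 180 TPM (Uqcrc2, a core protein) to 444 TPM (Uqcrq, which sits near cytochrome b). Complex IV ran from 235 TPM (Cox7b) to 971 TPM (Cox4i1, the regulatory subunit that binds nucleotides). In complex V the catalytic subunit gene Atp5b led with 1449 TPM. The lowest pair there, Atp5s at 8.10 TPM and Atp5sl at 16.5 TPM, carry ATP synthase names, but the human Atp5sl counterpart is known as an assembly factor of complex I. Atp5a1 and Atp5b, the alpha and beta subunits that form the catalytic hexamer, together took 21.2% to 22.1% of all counts on the 77 genes.

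**Figure D1:**
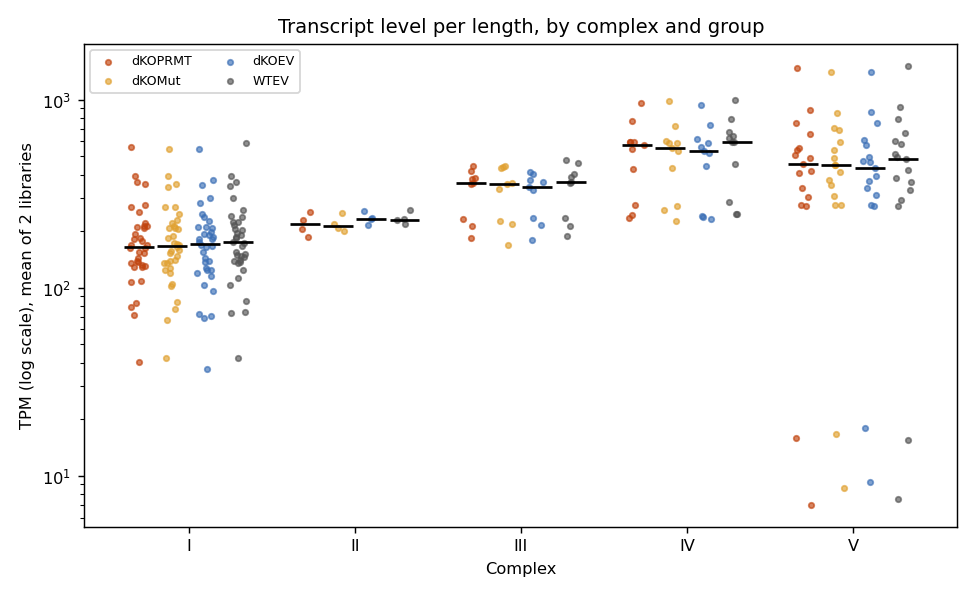
Level per length of each subunit gene in TPM (log axis), the mean of 2 libraries, by complex and by group (colours); bars are medians over the genes of a complex. Complex IV and V genes sit highest, complex I genes lowest, and the bars of the 4 groups lie close together within each complex.

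Across the 4 groups the subunit genes moved little. The range of the 4 group means had a median of 0.15 log2 units over the 77 genes, against a median replicate standard deviation of 0.07, and for 68 genes the range was under 0.25. In the overall test of any difference among the groups, 13 of 77 passed (16.9%), against 28.5% of all genes tested (edgeR quasi-likelihood test, Benjamini-Hochberg adjusted p under 0.05, as in every call below). The 13 were Ndufs3 and Ndufa12 in complex I, Sdhb and Sdhc in complex II, Uqcrq and Uqcr10 in complex III, Cox7a2, Cox7c and Cox6c in complex IV, and Atp5k, Atp5b, Atp5h and Atp5j2 in complex V. The whole set took 1.12% and 1.15% of counts in dKOPRMT, 1.12% and 1.15% in dKOMut, 1.09% and 1.12% in dKOEV, and 1.17% and 1.18% in WTEV. The share was thus highest in both WTEV libraries and lowest in dKOEV replicate 1.

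**Figure D2:**
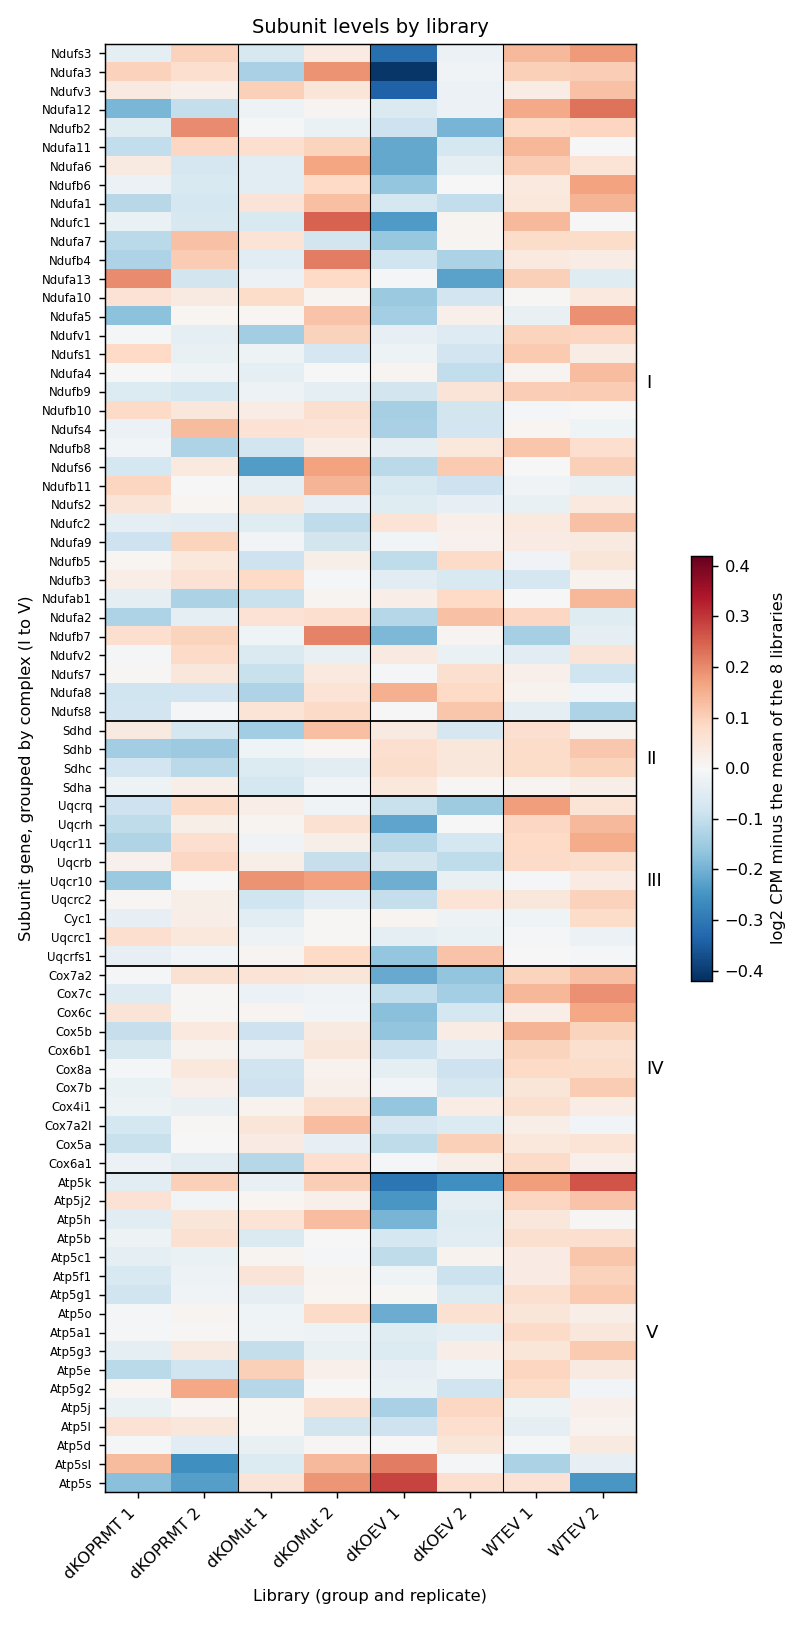
Level of each of the 77 subunit genes in each library, as log2 CPM minus the gene's mean over the 8 libraries (colour), with genes grouped by complex and ordered by dKOEV minus WTEV. The WTEV columns are mostly red and dKOEV replicate 1 mostly blue outside complex II, and the darkest row of complex V is Atp5k.

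The comparison of dKOEV with WTEV sets cells lacking both genes against wild-type cells, and genotype and donor sex cannot be told apart in it. In dKOEV cells 15 of the 77 subunit genes fell and 0 rose (19.5% called, against 15.4% of all genes called in either direction and 7% called lower). The median log2 fold change was -0.11, against 0.00 over all genes, and 68 of 77 genes had a value below 0 (88.3%, against 50.1% of all genes). The falls were small, between 7.21% (Atp5a1) and 29.3% (Atp5k). By complex, 3 of 36 genes fell in complex I, 0 of 4 in complex II, 3 of 9 in complex III, 5 of 11 in complex IV and 4 of 17 in complex V. The medians were -0.12, -0.03, -0.13, -0.14 and -0.10 in the same order. For complex II, 0 of the 4 genes had an unadjusted p under 0.05, and DESeq2 and limma voom also called 0. At an unadjusted p under 0.05 there were 29 of the 77 genes, against 3413 of all 12744 genes tested.

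The gene that fell most was Atp5k (chr5:108433253-108434378, minus strand), subunit e of the ATP synthase, which helps to hold synthase dimers together. It had 53.2 and 54.9 CPM in dKOEV, against 74.1 and 78.9 CPM in WTEV. The groups did not overlap, and the log2 fold change was -0.50 ± 0.08 (standard error; n = 2 libraries a group here and throughout; edgeR adjusted p = 1.64e-05). The neighbouring membrane subunit f, Atp5j2, had 111 and 128 CPM in dKOEV, against 140 and 143 CPM in WTEV, at -0.24 ± 0.06. Of the catalytic head, Atp5b had 1315 and 1339 CPM in dKOEV, against 1450 and 1453 CPM in WTEV, at -0.13 ± 0.03 (edgeR adjusted p = 0.00611). Atp5a1 fell by 0.11 ± 0.03. The fitted falls of the head subunits were smaller than those of subunits e and f, a difference that was not tested. The genes of e and f are shorter, at 292 and 477 bases, against 1879 (Atp5b) and 2431 (Atp5a1). With the length offset described below the call of Atp5j2 was lost. Over the 18 other settings its value came as near 0 as -0.10, while Atp5b stayed between -0.15 and -0.11. Atp5l, for the membrane subunit g, was at 0.01 ± 0.07 and did not pass.

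Complex IV held the highest share of falling genes. The name rule reaches only its subunits encoded in the nucleus. Cox7a2 (chr9:79755241-79759853, minus strand), the widely expressed form of subunit VIIa, had 88.4 and 91.3 CPM in dKOEV, against 109 and 111 CPM in WTEV. It fell by 0.30 ± 0.06 (edgeR adjusted p = 0.000792). Cox7c had 128 and 124 CPM in dKOEV, against 151 and 157 CPM in WTEV, and fell by 0.29 ± 0.06 (edgeR adjusted p = 0.000223). Both genes had dKOEV libraries well apart from WTEV, with replicates close to each other. Cox6c fell by 0.22, Cox5b by 0.18 and Cox8a by 0.14. The calls of Cox5b and Cox8a were lost under 10 and 8 of 18 other settings. Cox4i1 was at -0.11 ± 0.05 and Cox7a2l, which is known for joining complexes III and IV, at -0.07 ± 0.06, and neither passed.

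In complex III the small subunits Uqcrq, Uqcrh and Uqcr11 fell, by 0.24, 0.21 and 0.22. Uqcrh, the hinge protein between the complex and cytochrome c, had 102 and 119 CPM in dKOEV, against 126 and 131 CPM in WTEV. The redox carrier Cyc1 (cytochrome c1) stood at 142 and 139 CPM in dKOEV, against 139 and 148 CPM in WTEV, a difference of -0.03 ± 0.06 with overlapping groups. In complex I, Ndufs3, a core subunit of the peripheral arm, had 48.7 and 59.6 CPM in dKOEV, against 66.7 and 68.6 CPM in WTEV, and fell by 0.31 ± 0.09 (edgeR adjusted p = 0.0109). Ndufa12 fell by 0.23 and Ndufv3 by 0.24. The calls of Ndufa12, Ndufv3 and Uqcr11 were lost under 9, 10 and 8 of 18 other settings, DESeq2 and the fit of the 2 compared groups alone among them. Ndufs3, Ndufv3 and Uqcrh were lower in dKOEV replicate 1 than in replicate 2, and each lost its call when replicate 1 was left out. Ndufa3 was close to the threshold, at -0.29 ± 0.10 (edgeR adjusted p = 0.0527).

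The number of genes called depended on single libraries. Leaving 1 out leaves a group with 1 library and changes the estimate of spread shared by all genes tested. A fit of the compared groups alone changes it too. Counts from such fits, here and below, are given without the share of all genes called. They are not read as a trait of the subunit genes. The 15 became 7 without WTEV replicate 1, 5 without WTEV replicate 2, 8 without dKOEV replicate 1 and 18 without dKOEV replicate 2, all lower. The median stayed below 0 throughout, from -0.07 without dKOEV replicate 1 to -0.14 without dKOEV replicate 2. Atp5k, Cox7a2 and Atp5b were called in all 18 settings tried. The X-linked genes Ndufa1, Ndufb11 and Cox7b were not called in this comparison, at -0.18 ± 0.09, -0.05 ± 0.07 and -0.12 ± 0.06.

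**Figure D3:**
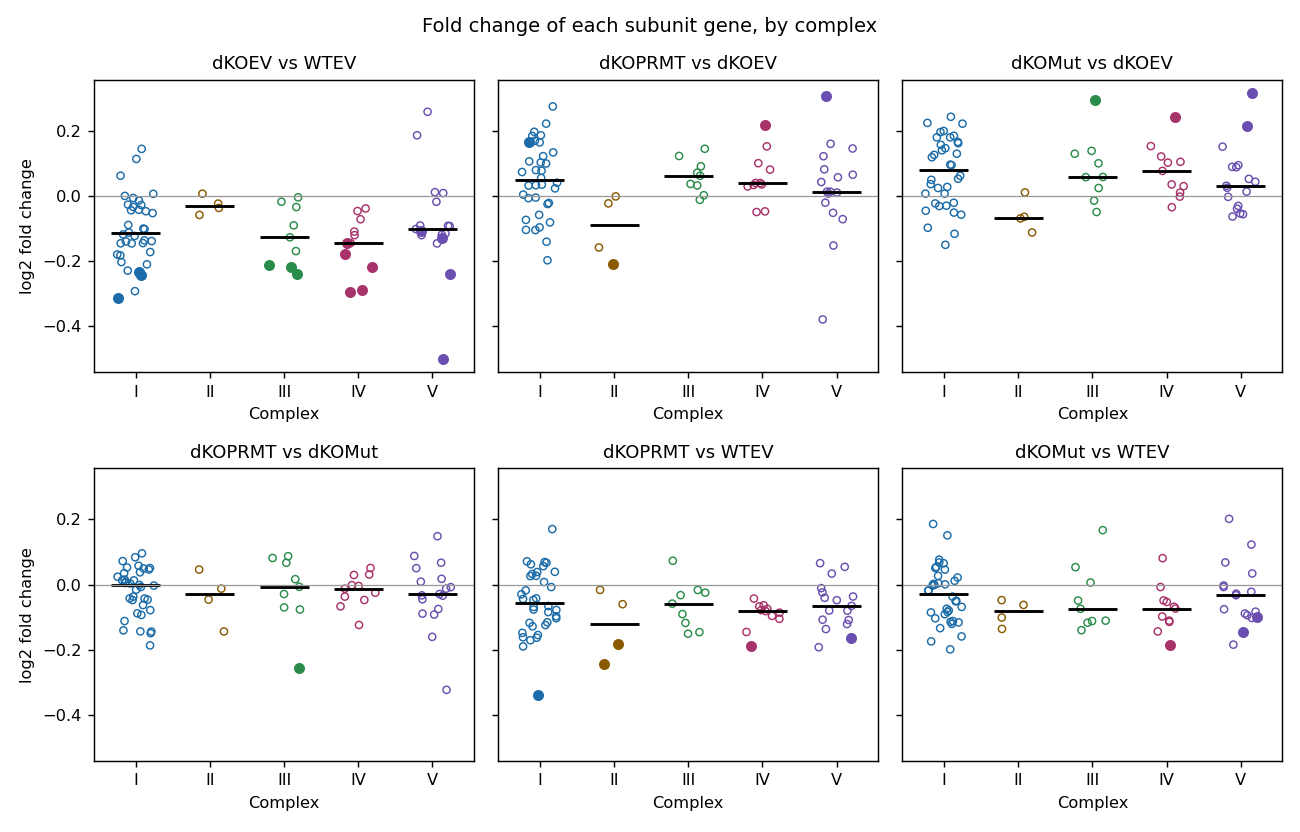
Log2 fold change of each subunit gene by complex in the 6 comparisons, the group named first over the second; filled points passed an adjusted p of 0.05, open points did not, and bars are medians. In dKOEV vs WTEV all 15 filled points are below 0, and in the comparisons of either insert with dKOEV the medians of complexes I, III, IV and V are just above 0 and that of complex II below.

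Gene length moved with these values. Subunit genes are short, with a median of 754 bases, against 2977 bases for all 9945 genes at 5 CPM or more. The 36 subunit genes of up to 700 bases had a median of -0.14 in dKOEV vs WTEV, and 10 of them fell. The 41 longer ones had a median of -0.07, and 5 fell. The 204 other genes of up to 700 bases also had a median of -0.14: it was -0.19 for the 38 cytosolic ribosomal protein genes among them, -0.14 for 14 mitochondrial ribosomal protein genes and -0.10 for the other 152. Genes over 700 bases had a median of 0.00. With an offset for the trend of each library with gene length, fitted over all genes tested with the subunits among them, the subunit median was -0.03 and 7 genes were called lower. These were Atp5k (-0.30), Cox7a2 (-0.22), Ndufs3, Ndufv3, Atp5b (-0.14), Atp5a1 and Atp5f1 (-0.13), the last of which had missed the threshold without the offset. Cox7c then stood at -0.14 (edgeR adjusted p = 0.0678), and 0 complex III genes were called. The part of library preparation in the length trend was not tested.

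**Figure D4:**
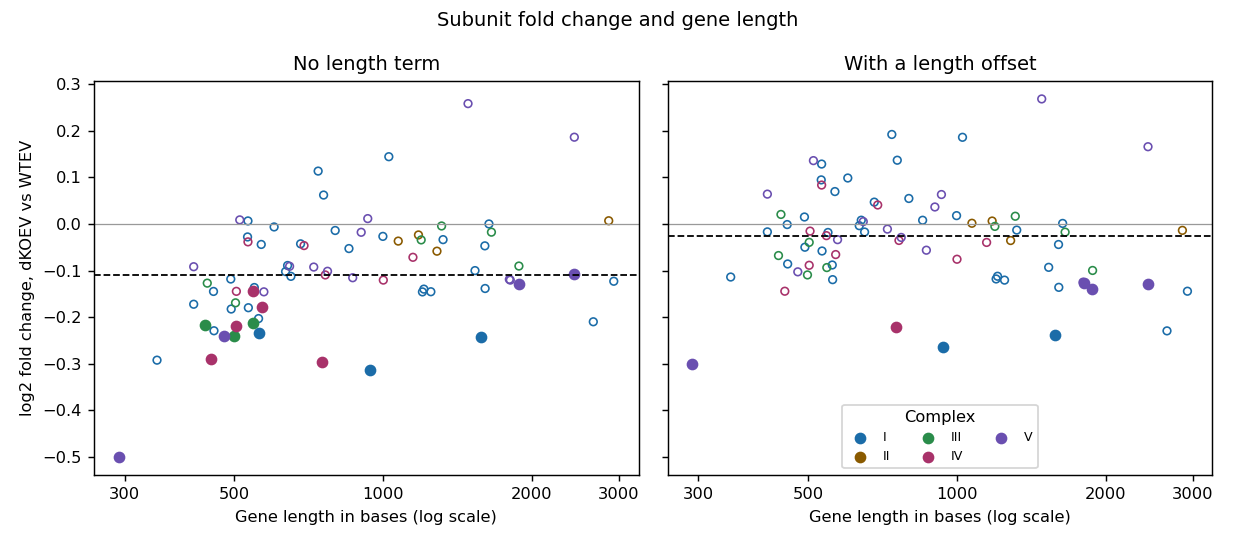
Log2 fold change of dKOEV over WTEV for each subunit gene against gene length in bases (log axis), without (left) and with (right) an offset for each library's length trend; filled points passed an adjusted p of 0.05 and the dashed line is the median over the 77 genes. The short genes at the left lie lower without the offset, and the median moves to -0.03 with it, against -0.11 without, while Atp5k stays lowest.

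The comparison of dKOPRMT with dKOEV asks what wild-type PRMT1 did in the double knockout. Of the 77 genes 3 rose and 1 fell (5.19% called, against 14.6% of all genes called in either direction). The median was 0.04. Atp5k had 63.5 and 70.4 CPM in dKOPRMT, against 53.2 and 54.9 CPM in dKOEV, and rose by 0.31 ± 0.08 (edgeR adjusted p = 0.00678). Cox7a2 had 102 and 107 CPM in dKOPRMT, against 88.4 and 91.3 CPM in dKOEV, and rose by 0.22 ± 0.06 (edgeR adjusted p = 0.0154). Both genes lay apart from dKOEV without overlap. The dKOEV libraries are the same ones that were set against WTEV, so the calls are not independent. Ndufa10, an accessory complex I subunit, rose by 0.17 ± 0.06 (edgeR adjusted p = 0.0493), a call lost in 13 of 18 settings. Without dKOPRMT replicate 2 all 4 calls were lost; without dKOEV replicate 2, 13 genes were called, 1 of them lower.

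The fall was in complex II. Sdhb (chr4:140961271-140979192, plus strand), the iron-sulphur subunit of succinate dehydrogenase, had 101 and 101 CPM in dKOPRMT, against 118 and 116 CPM in dKOEV, and fell by 0.21 ± 0.06 (edgeR adjusted p = 0.0149). In dKOMut it had 111 and 112 CPM, and in WTEV 118 and 121 CPM, so the dKOPRMT libraries were the lowest of the 8. Against WTEV it fell by 0.24 ± 0.06 (edgeR adjusted p = 0.00204), a call kept in all 18 settings. Against dKOMut the difference of -0.14 ± 0.06 did not pass (edgeR adjusted p = 0.251). Sdhc, a membrane anchor of the complex, had 124 and 121 CPM in dKOPRMT, 126 and 127 CPM in dKOMut, 138 and 136 CPM in dKOEV, and 139 and 140 CPM in WTEV. It fell in dKOPRMT against WTEV by 0.18 ± 0.06 (edgeR adjusted p = 0.0144), and its -0.16 ± 0.06 against dKOEV just missed (edgeR adjusted p = 0.0524). The catalytic flavoprotein Sdha and the second anchor Sdhd differed by -0.02 ± 0.04 and 0.00 ± 0.07 between dKOPRMT and dKOEV.

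**Figure D5:**
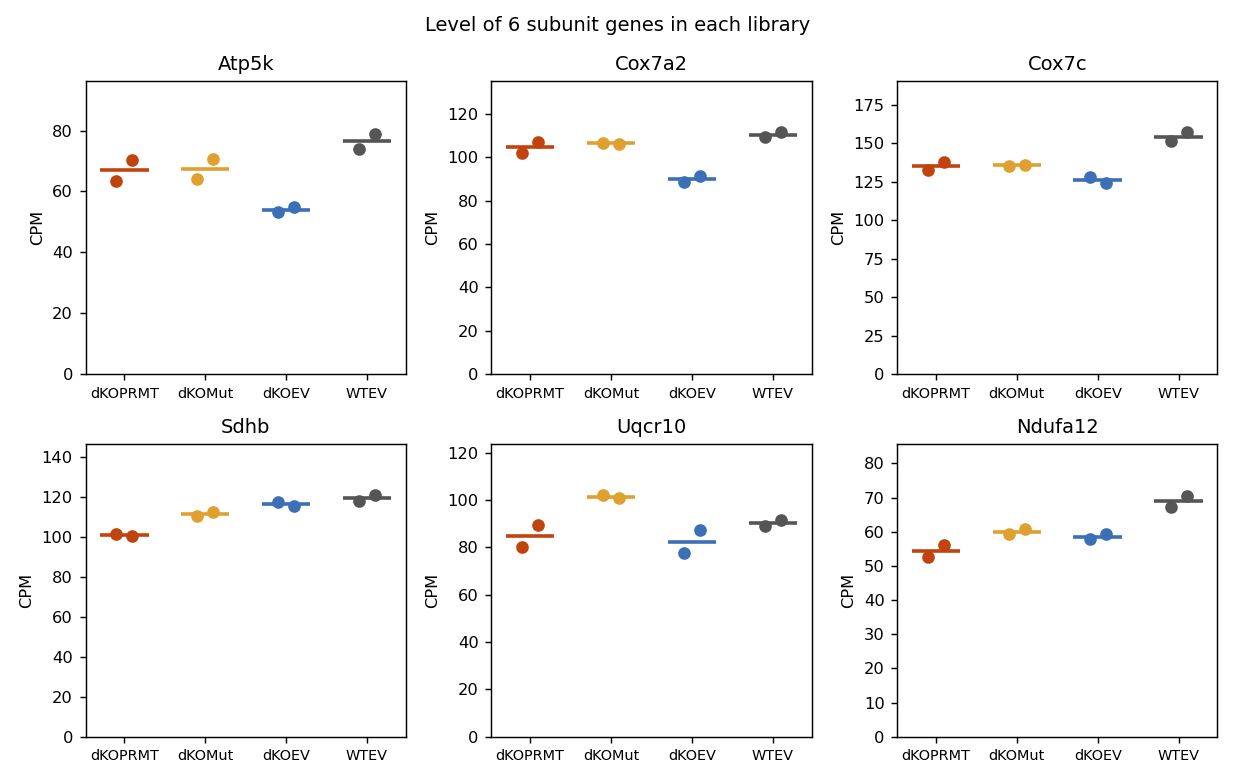
CPM of 6 subunit genes in each library (points) with group means (bars), axes starting at 0. Atp5k and Cox7a2 are lowest in dKOEV, Cox7c and Ndufa12 highest in WTEV, Sdhb lowest in dKOPRMT at 101 CPM, and Uqcr10 highest in dKOMut at 101 and 102 CPM.

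The comparison of dKOMut with dKOEV asks the same of the enzymatically dead form. Of the 77 genes 4 rose and 0 fell (5.19% called, against 11.3% of all genes). The median was 0.05. Atp5k had 64.2 and 70.5 CPM in dKOMut, against 53.2 and 54.9 CPM in dKOEV, and rose by 0.32 ± 0.08 (edgeR adjusted p = 0.00663). Cox7a2 had 107 and 106 CPM in dKOMut, against 88.4 and 91.3 CPM in dKOEV, and rose by 0.24 ± 0.06 (edgeR adjusted p = 0.00774), in all 18 settings. These are nearly the changes given above for dKOPRMT, which was set against the same dKOEV libraries. Atp5h, subunit d of the peripheral stalk, rose by 0.21 ± 0.05. Uqcr10, a small subunit of complex III, had 102 and 101 CPM in dKOMut, against 77.4 and 87.4 CPM in dKOEV, and rose by 0.29 ± 0.07 (edgeR adjusted p = 0.0042). In complex I 0 genes were called by edgeR, DESeq2 or limma voom. At an unadjusted p under 0.05 there were 7 of its 36 genes, against 3003 of all 12744 genes tested. The 4 calls became 14 without dKOEV replicate 2, and 2 without dKOEV replicate 1 or without dKOMut replicate 2. With the length offset 2 genes were called, Cox7a2 and Ndufv3. The calls of Atp5k (0.16), Atp5h (0.14) and Uqcr10 (0.20) were lost with it, and that of Atp5k was also lost without dKOMut replicate 2.

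The comparison of dKOPRMT with dKOMut sets the active against the dead enzyme. A single gene of the 77 passed (1.3%, against 3.11% of all genes), and the median was -0.01, or 0.02 with the length offset, on the other side of 0. Uqcr10 had 80.1 and 89.4 CPM in dKOPRMT, against 102 and 101 CPM in dKOMut, and fell by 0.26 ± 0.07 (edgeR adjusted p = 0.0352). The call was lost in 5 of 18 settings, namely DESeq2, the length offset, and the fits without either dKOMut library or without dKOPRMT replicate 1. Its level in WTEV was 89.0 and 91.5 CPM, between the dKOMut and dKOEV libraries. Atp5k and Cox7a2 differed by -0.01 ± 0.08 and -0.02 ± 0.06 between dKOPRMT and dKOMut, with overlapping libraries, so no difference between the inserts was detectable for the pair that rose with both.

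Against wild-type cells, 5 of 77 genes fell and 0 rose in dKOPRMT (6.49%, against 23.2% of all genes), with a median of -0.07. With the length offset that median was 0.00284, above 0, and a fit of the 2 compared groups alone called 14 genes. In dKOMut 3 fell and 0 rose (3.9%, against 19.4% of all genes), with a median of -0.05. Ndufa12 (chr10:94199009-94220948, plus strand), an accessory subunit of the peripheral arm of complex I, had 52.7 and 56.3 CPM in dKOPRMT, 59.5 and 60.7 CPM in dKOMut, 57.8 and 59.3 CPM in dKOEV, and 67.3 and 70.6 CPM in WTEV. All 6 dKO libraries were below both WTEV libraries. It fell by 0.34 ± 0.08 in dKOPRMT (edgeR adjusted p = 0.00124), in all 18 settings, and its -0.20 ± 0.08 in dKOMut did not pass (edgeR adjusted p = 0.0755). Cox7c had 132 and 138 CPM in dKOPRMT and 135 and 136 CPM in dKOMut, and fell by 0.19 ± 0.06 against WTEV in each. The other falls in dKOPRMT were Sdhb, Sdhc and Atp5e, the epsilon subunit of the synthase, at -0.16 ± 0.06. The call of Sdhc was lost in 5 of 18 settings and that of Atp5e in 7, where its value came as near 0 as -0.03. In dKOMut they were Atp5g3, a gene for the rotor subunit c, at -0.15 ± 0.05, and Atp5b, at -0.10 ± 0.03. The other subunit c genes, Atp5g1 and Atp5g2, were at -0.10 ± 0.06 and -0.09 ± 0.06 in dKOMut and did not pass. Without WTEV replicate 2 the counts became 2 in dKOPRMT and 0 in dKOMut. Without a dKOEV library, whose spread enters the shared estimate, they became 13 in dKOPRMT and 7 or 8 in dKOMut. They were 3 in dKOPRMT without WTEV replicate 1 or either dKOPRMT library, and 1 in dKOMut without dKOMut replicate 1.

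Of the 9 genes under 5 CPM, most are tissue forms of complex IV subunits. Cox7b2, Cox8c, Ndufa4l2 and Ndufs5 were listed at 0 counts in all 8 libraries, Ndufs5 although it is a general subunit of complex I. Cox8b had 4 counts, all in dKOPRMT replicate 2. Cox7a1, the heart and muscle form of subunit VIIa, averaged 0.927 CPM. Cox6b2 had a mean of 3.93 CPM, just under the limit, and Atp5s, at 6.11 CPM, was just over it. The partner forms Cox6a1, Cox6b1, Cox7a2 and Cox4i1 were at 163.9, 155.8, 102.8 and 377 CPM. Cox6a2, the heart and muscle form of subunit VIa, had 5 and 4 counts in dKOPRMT, 8 and 1 in dKOMut, 12 and 19 in dKOEV, and 45 and 46 in WTEV. It fell against WTEV, at -3.33 ± 0.82 in dKOPRMT (edgeR adjusted p = 0.00222) and -3.37 ± 0.82 in dKOMut (edgeR adjusted p = 0.00234). Both calls were lost without WTEV replicate 2 (edgeR adjusted p = 0.0599 and 0.0656), the first also without dKOPRMT replicate 2 (0.0513) and the second without dKOMut replicate 2 (0.0679). Cox4i2, the lung and hypoxia form of subunit IV, had 9 and 2 counts in dKOMut, against 43 and 28 in WTEV, and fell, at -2.71 ± 0.91 (edgeR adjusted p = 0.0316). That call was lost without either WTEV library, without either dKOMut library and without dKOPRMT replicate 1. Cox6a2 and Cox4i2 were chosen after their values were seen.

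The wider pathway was read from lists of related genes. Of 17 genes of the TCA cycle and pyruvate entry, 2 fell and 0 rose in dKOEV against WTEV (11.8%, below the 15.4% of all genes called): Idh2, mitochondrial isocitrate dehydrogenase, by 0.21 ± 0.05, and Pdha1, the E1 alpha subunit of pyruvate dehydrogenase, by 0.18 ± 0.06. Idh2 had a mean of 203 CPM in dKOPRMT, 213 CPM in dKOMut, 183 CPM in dKOEV and 212 CPM in WTEV, and rose against dKOEV with either insert. Of 44 tested assembly factors of the complexes, 0 were called in dKOEV against WTEV by edgeR, DESeq2 or limma voom. Of the 44, 4 had an unadjusted p under 0.05, against 3413 of all 12744 genes tested. Of 25 genes for electron carriers and membrane exchange, 5 fell and 0 rose there (20%, against 15.4% of all genes called and 7% called lower). Cycs, the gene of cytochrome c, which links complexes III and IV, fell by 0.41 ± 0.06 (means of 124 CPM in dKOEV and 165 CPM in WTEV; edgeR adjusted p = 2.81e-06). Usmg5, a small synthase subunit that the name rule does not reach, fell by 0.24 ± 0.07. The others were the phosphate carrier Slc25a3, the ADP/ATP carrier Slc25a5 and the outer membrane channel Vdac1. Cycs, Usmg5 and Vdac1 were also called lower against WTEV with each insert. Cycs fell by 0.37 in dKOPRMT and 0.38 in dKOMut, and Vdac1 by 0.17 and 0.25. Atp5k did not pass there, at -0.19 ± 0.08 in dKOPRMT and -0.18 ± 0.08 in dKOMut, without overlap in either. Nor did Cox7a2, at -0.08 ± 0.06 and -0.05 ± 0.06. The difference between these patterns was not tested. In dKOPRMT against dKOEV 1 of the 25 was called, against 14.6% of all genes. This was Etfb, which feeds electrons from fat and amino acid breakdown to the ubiquinone pool, and it rose by 0.22 ± 0.05. Etfb was also higher in dKOPRMT than in WTEV, by 0.23 ± 0.05. Etfa and Etfdh of the same list were at 0.11 ± 0.07 and -0.09 ± 0.09 against dKOEV and did not pass.

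Of 18 genes of mitochondrial biogenesis and transcription, 2 were called in dKOEV against WTEV (11.1%, below the 15.4% of all genes). Lonp1, a matrix protease, fell by 0.24 ± 0.05, and Polg, the mitochondrial DNA polymerase, rose by 0.31 ± 0.08. In dKOPRMT against dKOEV 2 of the 18 were called (11.1%, below the 14.6% of all genes). Gabpa, an ETS factor, rose by 0.23 ± 0.07 there, and Tfb2m, a mitochondrial transcription factor, by 0.35 ± 0.12. Nrf1 was at 0.18 ± 0.09 in that comparison and did not pass. Against dKOMut, Gabpa and Tfb2m in dKOPRMT were at 0.07 ± 0.07 and 0.09 ± 0.12, and against WTEV at 0.13 ± 0.07 and 0.11 ± 0.12. None of these 4 values passed. Of 77 mitochondrial ribosomal protein genes 3 fell in dKOEV against WTEV (3.9%, below the 15.4% of all genes called), with a median of -0.07. Of 75 cytosolic ribosomal protein genes 65 fell there (86.7%), with a median of -0.16. Against dKOEV 5 of them rose in dKOPRMT (6.67%, against 14.6% of all genes) and 51 in dKOMut (68%, against 11.3% of all genes), and 16 fell in dKOPRMT against dKOMut (21.3%, against 3.11% of all genes).

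Cell type markers also differed between the groups, in orders that varied with the cell type. The 10 neutrophil granule genes summed to 29467 and 29837 CPM in dKOPRMT, 29367 and 29996 CPM in dKOMut, 22146 and 23197 CPM in dKOEV, and 16587 and 16570 CPM in WTEV. The 8 monocyte and macrophage genes summed to 3083 and 3010 CPM in dKOPRMT, 2973 and 3014 CPM in dKOMut, 4898 and 5218 CPM in dKOEV, and 6407 and 6479 CPM in WTEV. The 8 mast cell and basophil genes summed to 440 and 451 CPM in dKOPRMT, 827 and 826 CPM in dKOMut, 673 and 695 CPM in dKOEV, and 1355 and 1402 CPM in WTEV. The granule and monocyte sums of dKOEV lay between those of WTEV and of both insert groups. The 8 erythroid genes summed to 14.5 and 17.4 CPM in dKOPRMT, 23.2 and 22.0 CPM in dKOMut, 30.5 and 30.8 CPM in dKOEV, and 48.5 and 51.8 CPM in WTEV, mostly from Gata1. The 6 megakaryocyte genes summed to 164 and 166 CPM in dKOPRMT, 195 and 191 CPM in dKOMut, 302 and 298 CPM in dKOEV, and 279 and 292 CPM in WTEV, so they were highest in dKOEV. Their part in the subunit values was not tested, and in bulk RNA fewer cells of a type and less RNA per cell cannot be told apart.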

How the data were processed

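RNA was measured in 8 libraries, 4 groups of 2. The deposited table holds unnormalised whole-number counts per gene, beside a gene length for each. Per the labels' protocols, RNA came from a micro-scale column kit and went into a strand-marking library kit. The submitters' processing notes list Trim Galore 0.6.6, STAR 2.7.6a and featureCounts, with GRCm38 (mm10). Neither the annotation nor the strand setting of the counting is stated, so overlapping and antisense genes, and subunit genes that share reads with pseudogenes, are uncertain. The members and lists were chosen with earlier results of these data known.

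The test was edgeR 4.0.16 (R 4.3.3): filterByExpr, TMM scaling and a robust quasi-likelihood fit of the 4 group means over all 8 libraries (4 residual degrees of freedom), with Benjamini-Hochberg adjustment over 12744 genes and a threshold of 0.05. Standard errors are the fold change divided by the root of F. CPM uses TMM-scaled totals, and TPM divides counts by gene length. Alternatives were other scalings and filters, DESeq2 1.42.0, limma 3.58.1 voom, fits restricted to the compared groups, a block for replicate number, a length offset (lowess span 0.3) and each library left out. Genes were named by rule: called members of each complex with the smallest p, all of complex II, X-linked genes, paralogues, and the highest and lowest per length, with some left out for room. The low-count Cox6a2 and Cox4i2 were added after their values were seen. The scripts were checked on simulated counts. Replicates differed by more than sampling noise (chi-square per degree of freedom 3.65 to 6.43), so each was kept as a separate sample.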

Additional observations from a re-analysis of the deposited data

How the results depend on the processing

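With 2 libraries a group, the counts of called subunit genes depended on single libraries. Leaving 1 out, or fitting the compared groups alone, changes the estimate of spread for every gene. The share of all genes called in those fits is not given here. Leaving out 1 library gave 5 to 18 called genes in dKOEV vs WTEV (15 with all), 0 to 13 in dKOPRMT vs dKOEV (4), 2 to 14 in dKOMut vs dKOEV (4), 0 to 1 in dKOPRMT vs dKOMut (1), 2 to 13 in dKOPRMT vs WTEV (5), 0 to 8 in dKOMut vs WTEV (3) and 7 to 24 in the overall test (13). The medians then ran from -0.142 to -0.0710, 0.0163 to 0.0826, 0.0333 to 0.0897, -0.0504 to 0.0102, -0.0891 to -0.0582 and -0.0804 to -0.0336 for the 6 comparisons in that order. In dKOEV vs WTEV, DESeq2 called 9, a fit of the compared groups alone 9 and the length offset 7, which moved the median to -0.0252. In dKOPRMT vs dKOMut DESeq2 called 0, and the length offset gave a median of 0.0244, above 0. In dKOPRMT vs WTEV a fit of the compared groups alone called 14 and the length offset gave a median of 0.00284, above 0. In dKOMut vs dKOEV the length offset called 2, with a median of 0.0200. The cause was not tested beyond what each setting changes. Of the 32 calls, 0 changed direction in any setting; 32 were kept under RLE scaling, 31 under upper-quartile scaling, 29 under limma voom, 23 under DESeq2, 14 under the length offset and 15 without WTEV replicate 2. A minimum of 1 or 10 CPM gave 78 or 76 members. The overall test has no value for the compared groups alone. Same-numbered replicates did not deviate together (correlations of -0.05 to 0.00), so the numbers are not taken as pairs; with the replicate block 17, 4, 5, 1, 5 and 4 genes were called in the 6 comparisons, in the order above.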
